A study of Rattus norvegicus with 4 samples.

Results

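The cytosolic ribosomal protein genes were taken as all genes on the array whose symbol has the standard form of a large-subunit (Rpl) or small-subunit (Rps) ribosomal protein, with the stalk proteins and Rpsa included and with the Rps6k kinases, like genes and pseudogenes left out. Only probe sets paired with a single symbol were used, and each gene was represented by its brightest probe set over all 4 arrays, which gave 42 genes from 48 probe sets, of 14217 genes with a single-symbol probe set in all. Of the 42 genes, 29 encode large-subunit and 13 small-subunit proteins. Of the stalk proteins only Rplp0 is among them. The rat genome holds many processed copies of these genes, and 33 further probe sets are paired with several symbols of which at least 1 is a ribosomal protein. These probe sets are the only ones for 27 other ribosomal protein genes, Rplp1 among them, and no gene was named from them.

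Cells were of RT4D6, a single Schwannoma line of the rat that the labels describe as expressing Sox10, p75, GFAP and S100. They were treated for 48 h with an siRNA against Sox10, called wild type, or with a mutant version of it that served as the control, and all samples thus received an siRNA. Biotin-labelled RNA was hybridised to 1 Affymetrix Rat 230 2.0 array per sample, with 2 arrays in each group, numbered as 2 pairs. Values are MAS5 signals, the brightness of a probe set on a linear scale, and each array had been scaled to the same trimmed mean of 500, so that a change of all RNAs together is not in them. In RNA of a whole culture, fewer cells of a type and less RNA per cell cannot be told apart. The study calls the pairs independent without saying how they were grown, so that p-values measure the spread between these few samples, which may be technical.

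Ribosomal proteins are made in near equal numbers, since each ribosome takes up a single copy of almost every one of them, and their mRNAs are among the most abundant of growing cells. Most of these mRNAs begin with a terminal oligopyrimidine (TOP) motif, a C followed by a run of pyrimidines. Through it mTOR and the RNA-binding protein Larp1 control their translation. In Schwann cells, as in other glia, growth signals through mTOR accompany proliferation and myelination.

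The annotated starts of 37 of the 42 genes were found in RefSeq (GRCr8), and Rpl7, Rpl23a, Rpl27, Rpl30 and Rps29 had no entry there. A C at the annotated start followed by at least 4 pyrimidines (C or T), read on the strand of the gene, stood at 12 of the 37 starts (32.4%), against 2.63% of 27457 genes with 1 start each. A run of 8 pyrimidines between 10 bases before and 20 bases after the start was found in 21 of the 37 (56.8%) and in 10.6% of all genes. Annotated starts can be off by several bases, so that these counts describe the annotation. The core to which Sox proteins bind, ACAAT or ATTGT on either strand, lay within 250 bases before and 50 bases after the start in 11 of the 37 (29.7%), near the share among all genes (33.1%). The starts below run from 15 bases before to 15 bases from the start on, with the pyrimidine run in capitals. The first 6 are shown because they carry the motif.
Rplp0: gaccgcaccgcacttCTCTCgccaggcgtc
Rpl19: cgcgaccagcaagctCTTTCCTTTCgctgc
Rpl34: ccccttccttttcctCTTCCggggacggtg
Rpl37a: gcatgcccgttgcgtCTCTTCCTCTTCggg
Rps15: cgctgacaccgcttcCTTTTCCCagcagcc
Rpl39: tcttctaatcgcgttCTTCCggcctgtcct
The others are genes whose annotated start lacks it and which are described below.
Rpl21: ttcctttccgccggggcagccatcttccag
Rpl13a: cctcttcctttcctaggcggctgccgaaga
Rps6: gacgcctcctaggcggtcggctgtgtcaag
In Rpl21 and Rpl13a a pyrimidine run lies a few bases before the annotated start. On the plus strand of GRCr8 lie the stretches of Rpl19 at chr10:83519049-83519078 and of Rpl37a at chr9:81748076-81748105. On the minus strand lie those of Rplp0 at chr12:46718376-46718405, Rpl34 at chr2:221962269-221962298, Rps15 at chr7:10068101-10068130 and Rpl39 at chrX:121195882-121195911. Those of Rpl21 at chr12:13386139-13386168, Rpl13a at chr1:104748899-104748928 and Rps6 at chr5:106420526-106420555 lie on the minus strand as well. Each holds the end of the promoter and the first bases of the first exon as annotated.

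Sox10, against which the siRNA was made, measured 163 and 335 with the wild type siRNA and 2873 and 2890 with the control, the mutant siRNA. Its log2 fold change (wild type minus mutant siRNA, on log2 signals centred on the median of each array) was -3.54 (standard error, SE, 0.33, adjusted p = 0.0013 from limma). All 5 Schwann cell markers tested were lower with the wild type siRNA, and of 3 smooth muscle markers tested Acta2 and Tagln were higher. The summed signal of the 5 smooth muscle markers was 23562 and 28228 with the wild type siRNA against 6047 and 10422 with the mutant siRNA. Of 4 fibroblast markers 2 were tested, Col1a1 at 0.70 and Col3a1 at 1.5 on the log2 scale, and neither was called (adjusted p = 0.0832 and 0.077), but both were higher with the replicate number as a block and with wild type siRNA replicate 1 left out. The part of these markers in the results below was not tested. The markers of immune cells were too dim to test, with a summed signal between 48.1 and 199. Median signals of the arrays ran from 101 to 110. Signals at the 3′ end of Gapdh over those at its 5′ end, which reflect RNA quality, ran from 1.06 to 1.11. For actin this ratio was 1.54 and 1.39 with the wild type siRNA and 1.87 and 1.52 with the mutant siRNA.

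No ribosomal protein gene passed the test for a difference between the siRNAs. Of the 42 genes, the 40 whose signal reached the median of its array on 2 or more arrays were tested, and limma called none lower and none higher, with calls made at an adjusted p under 0.05. Over all 9163 genes tested, with 1 probe set each, 10.6% were lower and 17.4% were higher. None of the 40 reached an unadjusted p under 0.05 either, nor in the methods' t-test, before or after adjustment. The smallest adjusted p was 0.125, of Rpl39. The probe sets of Rpl28 and Rpl30 were too dim to test, and whether they report the coding mRNA was not tested. Rpl28, a large-subunit protein, had signals of 62.9 and 149 with the wild type siRNA and 61.4 and 83.2 with the mutant siRNA. Rpl30, another, had signals of 42.2 and 59.7 against 86.8 and 76.0.

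The changes of the genes were close to each other. The median log2 fold change of the 40 genes was 0.04, against 0.19 for all genes tested, and 38 of them lay below the latter. Of the 40, 38 lay within 0.25 of 0 on the log2 scale, where 28.1% of all genes did. The median standard error was 0.14 for the 40 genes and 0.23 for all genes. The 38 other genes as bright as the bright ribosomal protein genes, described below, also had a median log2 fold change of 0.04. Their values ran from -0.53 to 0.32, and their share within 0.25 of 0 was not computed. A median below that of all genes was thus also seen in other bright genes. These other bright genes include Eef1a1, Eef1b2, Eef1g, Rack1 and Naca, which are in the list of TOP genes described below. Whether a low median is particular to the ribosomal protein genes was not tested. The 27 large-subunit genes tested had a median of 0.04 and the 13 small-subunit genes one of 0.05. The 11 tested genes with a TOP start as annotated had a median of 0.08 and the 25 matched genes without it one of 0.04. The difference between them was not tested. The 25 include Rpl27a and Rps23, where a run of 19 pyrimidines opens at the annotated start with a T instead of a C.

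The groups, taken without regard to the pairs, overlapped for 38 of the 40 genes. On the centred log2 scale, both wild type siRNA arrays lay below both mutant siRNA arrays for 1 of the 40 genes, Rpl21, and above them for 1, Rpl39. Over all genes tested, 24.4% had groups that did not overlap in the first direction and 45.3% in the second. Within pairs, the wild type siRNA array was above its control in both pairs for 24 of the 40 genes and below it in both for 5, against 52.3% and 28.8% of all genes.

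**Figure D1:**
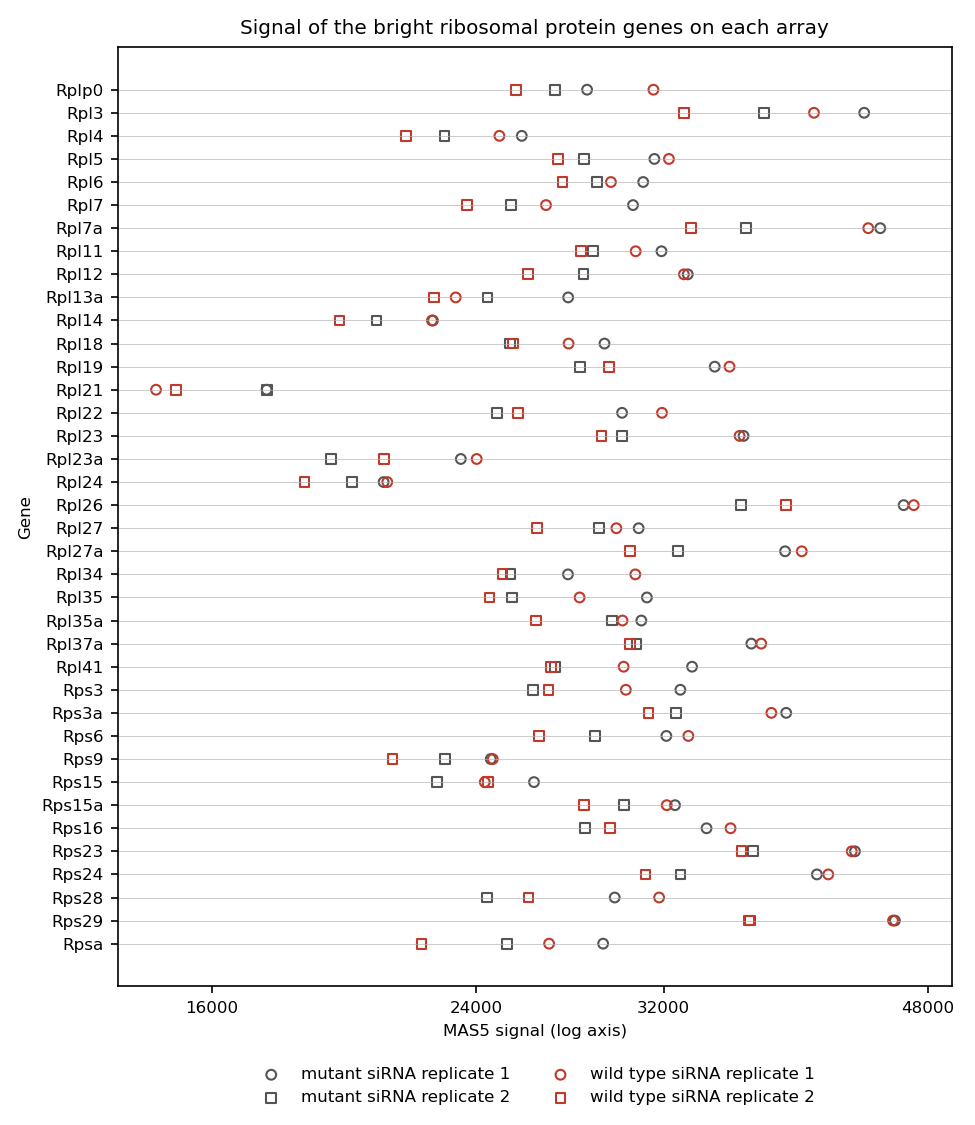
Signals (MAS5, log axis) of the 38 ribosomal protein genes in the top 2% of every array. Grey marks are the mutant siRNA arrays, red marks the wild type siRNA arrays, circles replicate 1 and squares replicate 2, and levels of different genes are not compared since each probe set has its own brightness. For 35 of the 38 genes the circles of both colours lie to the right of the squares of both colours.

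The precision of this result differs between 38 bright genes and 2 dim ones. The 38, 26 of the large and 12 of the small subunit, were at or above the 98th percentile on every array, with signals between 14692 and 46957, where the highest signal of any probe set on an array was between 42718 and 53237. Their log2 fold changes lay between -0.14 and 0.17 with standard errors between 0.12 and 0.16. Their 95% confidence intervals reached at most from -0.44 to 0.52, a fold between 0.736 and 1.44. A larger change of any single bright gene lies outside its interval in this scaling and fit only. With cyclic loess normalization, described below, Rpl21 was at -0.32 and Rpl13a at -0.29, and intervals were not computed there. The adjusted p of the 38 bright genes from limma lay between 0.420 and 0.998. With the replicate number as a block it lay between 0.101, of Rps28, and 0.996, of Rpl41. Of the 38 other genes with signals at least as high on every array, 2 were lower and none was higher (5.26% called), with a median log2 fold change of 0.04. Whether signals this high were compressed by saturation of the scanner was not tested.

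The stalk protein Rplp0, which carries the acidic proteins that recruit the elongation factors, had signals of 31501 and 25529 with the wild type siRNA and 28454 and 27090 in the controls. The wild type siRNA arrays lay on either side of both controls. The means were 28515 ± 4223 and 27772 ± 964 (SD, n = 2 each), and the log2 fold change was 0.11 (SE 0.14, adjusted p = 0.574 from limma). Rpsa, a small-subunit protein also known as a laminin receptor, had signals of 26844 and 22077 against 29162 and 25173. These groups overlapped, and the log2 fold change was -0.08 (adjusted p = 0.728). Its other probe sets, which are of types that can share probes with related sequences, lay at -0.12 and -0.15 and were not called either.

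Rps6 is the small-subunit protein that the S6 kinases phosphorylate downstream of mTOR. Its signals were 33235 and 26428 with the wild type siRNA and 32132 and 28792 in the controls. The control signals lay between those of the wild type siRNA arrays, and the log2 fold change was 0.04, with a 95% interval from -0.29 to 0.37. Rpl5 and Rpl11 form a particle with ribosomal RNA that can bind and inhibit Mdm2. Rpl5 had signals of 32259 and 27211 against 31547 and 28335, and Rpl11 had 30655 and 28200 against 31892 and 28725. The groups overlapped for either gene, and the log2 fold changes were 0.07 for Rpl5 and 0.04 for Rpl11 (adjusted p = 0.744 and 0.851). With the signals as deposited all 3 lay below 0, at -0.04 for Rps6, -0.01 for Rpl5 and -0.04 for Rpl11, and the sign of changes this small is not established.

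The lowest log2 fold changes were those of Rpl21, Rpl13a, Rpsa and Rpl7. Rpl21, a large-subunit protein, had signals of 14692 and 15154 with the wild type siRNA and 17407 and 17417 with the mutant siRNA, a log2 fold change of -0.14 (SE 0.13, adjusted p = 0.438). Both wild type siRNA signals were below both controls, and the gene did not pass the test. Rpl13a, a large-subunit protein that also takes part in translational silencing in immune cells, had 23262 and 22506 against 27640 and 24427, a log2 fold change of -0.10 (adjusted p = 0.581). Both wild type siRNA signals were below both controls as deposited, but not after centring, with differences of -0.21 in the first pair and 0.01 in the second. Rpl7, a large-subunit protein, had 26717 and 23661 against 30530 and 25322, at -0.07 (adjusted p = 0.760). A dimmer probe set of Rpl7 lay at 0.21 and was not called.

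The highest among the bright genes were Rps28 and Rpl23a. Rps28, a small-subunit protein near the mRNA exit, had signals of 31777 and 26013 with the wild type siRNA and 29685 and 24396 with the mutant siRNA, a log2 fold change of 0.17 (SE 0.15, adjusted p = 0.420). Each wild type siRNA signal was above the control of its own pair, but the groups overlapped, with both replicate 1 arrays above both replicate 2 arrays. Rpl23a, at the exit of the peptide tunnel, had 24023 and 20843 against 23445 and 19224, at 0.15 (adjusted p = 0.469). After cyclic loess normalization, which removes differences that follow brightness, both lay just below 0, at -0.01 and -0.02.

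**Figure D2:**
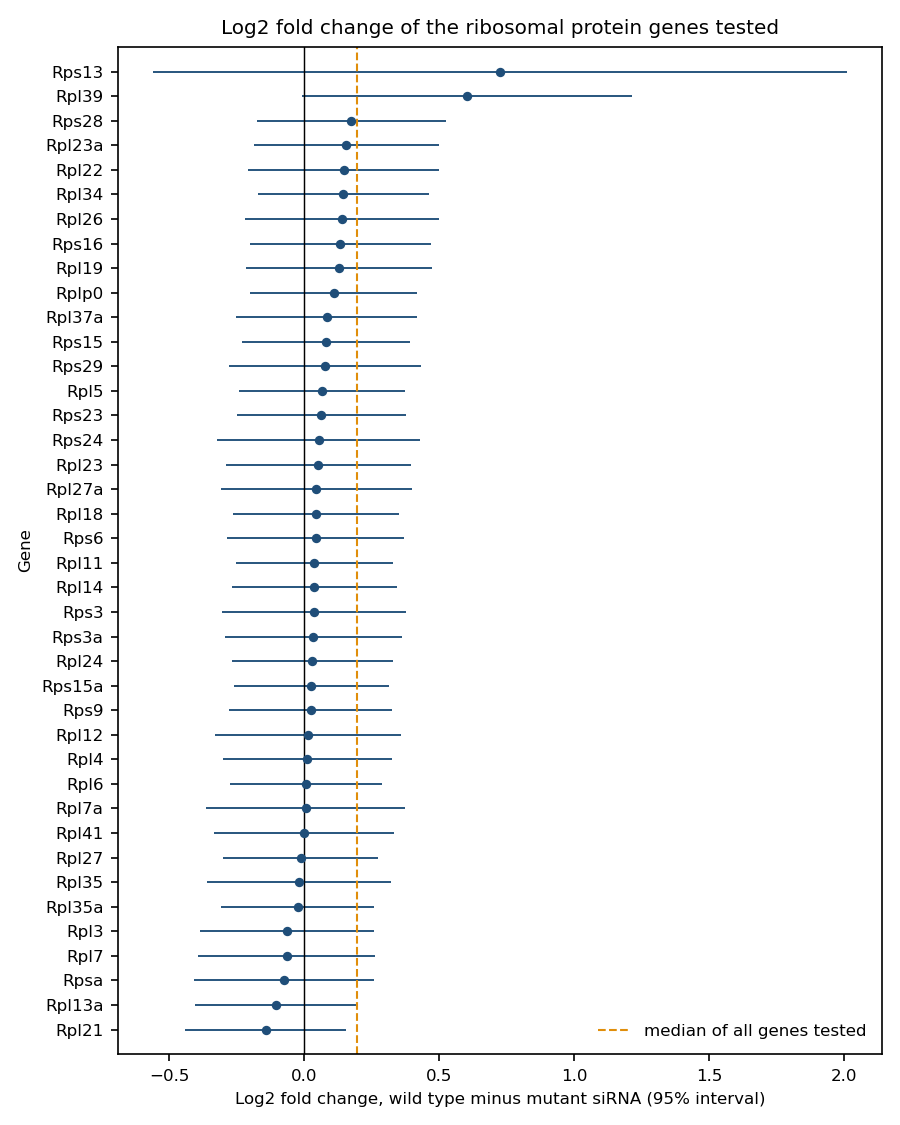
Log2 fold change (wild type minus mutant siRNA) of the 40 ribosomal protein genes tested, with 95% intervals from limma. The intervals of all 40 include 0, and the dashed line marks the median of all genes tested, 0.19. Rps13 and Rpl39, the dim genes, have the widest intervals.

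The widest intervals belonged to the dim genes. Rpl39, a short protein lining the exit tunnel, had signals of 360 and 338 with the wild type siRNA and 213 and 276 with the mutant siRNA, a log2 fold change of 0.60 (SE 0.27, adjusted p = 0.125). Its groups did not overlap, and its interval ran from -0.01 to 1.21. Rps13, a small-subunit protein, had signals of 146 and 145 against 154 and 56.4, a log2 fold change of 0.73 (SE 0.56, adjusted p = 0.362). Mutant siRNA replicate 2 alone was low, and without it the log2 fold change was -0.02. Whether these dim probe sets report the coding mRNA was not tested.

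A second, dimmer probe set of Rpl3, a protein next to the peptidyl transferase centre, stood apart from the probe set used for the gene. It had signals of 901 and 1030 with the wild type siRNA and 403 and 746 with the mutant siRNA, a log2 fold change of 0.89 (SE 0.30, adjusted p = 0.0559), which passed with the replicate number as a block (adjusted p = 0.00811). The bright probe set of Rpl3 had signals of 40296 and 33003 against 43519 and 37308, at -0.06. The second probe sets of Rpl14 and Rps24 were dim as well, the first below the filter and the second at -0.40 (adjusted p = 0.311). Of the 33 probe sets with several symbols, all of which passed the filter, 1 was higher and none was lower, and their log2 fold changes ran from -0.11 to 0.48 around a median of 0.04.

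Between the replicates, the ribosomal protein genes differed by more than between the siRNAs. Replicate 1 was brighter than replicate 2 in both groups for 35 of the 40 genes, against 31.0% of all genes tested. The median difference, replicate 1 minus replicate 2, was 0.18 with the wild type siRNA and 0.26 with the mutant siRNA on the centred log2 scale. Averaged over the groups it was 0.23 for the 40 genes, 0.07 for the 38 other genes as bright and 0.01 for all genes. It was larger in size than the difference between the siRNAs for 36 of the 40, and for 24.2% of all genes. Rps29, a small-subunit protein, showed it plainly, with signals of 45487 and 36475 with the wild type siRNA and 45618 and 36536 with the mutant siRNA. Within each pair its signals lay closer to each other than either did to the other array of its own group. Quantile normalization lowered the median replicate difference to 0.05, with 16 of 40 genes brighter on replicate 1 in both groups, and cyclic loess normalization left it at 0.19. The actin ratio given above was also higher on replicate 1 in both groups, and its part in this difference was not tested.

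**Figure D3:**
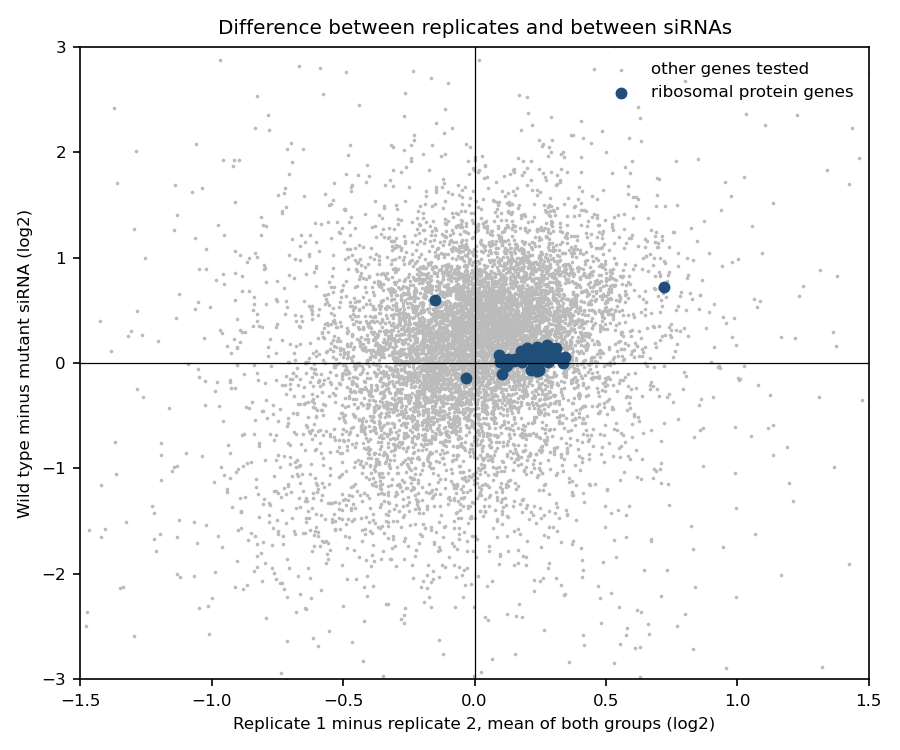
Difference between the siRNAs (wild type minus mutant) against the difference between replicates (replicate 1 minus replicate 2, mean of both groups), both on the centred log2 scale, for each gene tested. Blue points are the 40 ribosomal protein genes, which form a tight cluster to the right of 0 and near 0 in height, apart from Rps13 and Rpl39. Grey points are the other genes, and 110 genes beyond the axes, none of them a ribosomal protein gene, are not drawn.

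Within pairs the median log2 fold change of the 40 genes was 0.03 in the first and 0.06 in the second, against 0.18 and 0.19 for all genes. A measure that does not depend on linear scaling is the share of the summed signal of an array. The 40 genes held 5.0% and 4.33% of it with the wild type siRNA, against 5.11% and 4.49% in the controls. The groups overlapped, and the ratio of wild type to mutant siRNA was 0.980 in the first pair and 0.964 in the second. With 2 arrays against 2, an exact permutation test cannot give a two-sided p under 0.333.

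Some other genes of the translation machinery passed the test, in lists compiled from textbook knowledge. Their counts in the main limma fit are to be read against the shares over all genes given above, 17.4% higher and 10.6% lower. Shares over all genes under other settings are not given here, so counts under those settings cannot be read this way. Of 73 mitochondrial ribosomal proteins, which build the ribosome of that organelle, 20 (27.4%) were higher and none was lower (adjusted p under 0.05 from limma), and their median log2 fold change was 0.42. The count of higher genes was 26 with the replicate block, 14 with the signals as deposited, 9 with cyclic loess normalization and 11 with quantile normalization. A single gene was lower with the block and under each of these scalings. Fits without an array leave 1 array in a group, which limits what they can call. Fewer genes were called higher in each of them, with the smallest loss without wild type siRNA replicate 2. Mrpl57 had signals of 2530 and 1860 with the wild type siRNA and 1130 and 965 with the mutant siRNA, a log2 fold change of 1.13 (SE 0.21, adjusted p = 0.00841). It did not pass when mutant siRNA replicate 2 was left out (adjusted p = 0.0539). Mrps2 was at 1.09, Mrpl58, which releases peptides from stalled ribosomes, at 0.96 and Mrps33 at 0.83, and all 3 calls were lost without mutant siRNA replicate 1. The calls of Mrps2 and Mrpl58 were also lost without wild type siRNA replicate 1. The difference between this list and the cytosolic ribosomal proteins was not tested.

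**Figure D4:**
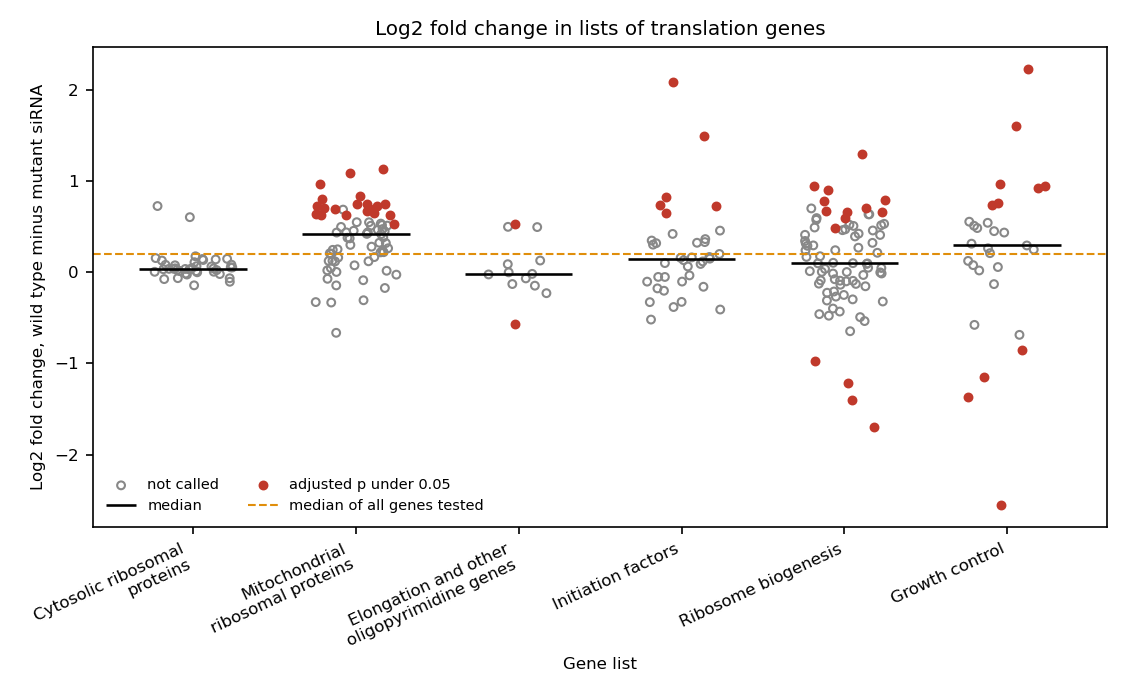
Log2 fold change (wild type minus mutant siRNA) of the genes tested in each list. Filled red points passed the test at an adjusted p under 0.05, open grey points did not, short black lines are the medians of the lists and the dashed line the median of all genes tested. The cytosolic ribosomal proteins hold no red point, and the mitochondrial ones have the highest median, 0.42.

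Elongation factors and some other genes share the TOP motif with ribosomal proteins. Of 13 tested genes of this kind, 1 was lower and 1 higher, and the median was -0.02. None of the 5 elongation factors among them was called, with log2 fold changes from -0.15 to 0.13. With the replicate block 3 of the 13 were higher, and with cyclic loess normalization 2 were lower and none was higher. Eef1a1, which brings aminoacyl-tRNA to the ribosome, had signals of 38379 and 28383 with the wild type siRNA and 35100 and 28997 with the mutant siRNA, at 0.13 (adjusted p = 0.595), and Eef2, the translocase, was at -0.13 (adjusted p = 0.546). Both were named after their values were seen. The called genes were of other kinds. Nap1l1, a histone chaperone, was at -0.57 (SE 0.18, adjusted p = 0.0469), and this call held only with wild type siRNA replicate 2 left out among the fits without an array. Eif3k, a subunit of initiation factor 3, was at 0.52 (SE 0.15, adjusted p = 0.0356) and was not called under any of the other scalings or without any of the 4 arrays.

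The list of initiation factors and the kinases that act on them leaves out Eif3k and the other 3 factors counted with the TOP genes. Of its 37 genes tested, 6 (16.2%) were higher and none lower, with a median of 0.15, and 9 were higher with the replicate block. Eif5a2, an isoform of the hypusinated factor Eif5a, had signals of 910 and 1131 with the wild type siRNA and 175 and 365 with the mutant siRNA, a log2 fold change of 2.09 (SE 0.34, adjusted p = 0.00525). Eif2b1, a subunit of the factor that recharges initiation factor 2, had 2917 and 2717 against 920 and 1223, at 1.49 (SE 0.20, adjusted p = 0.00279). These calls held with each array left out. Eif2s1, the subunit of initiation factor 2 that stress kinases phosphorylate, was at 0.82 (adjusted p = 0.00941), and did not pass when mutant siRNA replicate 1 was left out (adjusted p = 0.0614). Eif5b, which joins the subunits, was at 0.74 and lost its call in every fit without an array but that without wild type siRNA replicate 2. Fewer genes of the list were called higher in the fits without an array, apart from that without wild type siRNA replicate 2, where the count was unchanged.

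Of 81 genes of ribosome biogenesis tested, 11 (13.6%) were higher and 4 (4.94%) lower, with a median of 0.10. With the replicate block 17 were higher and 8 lower. With the signals as deposited, 5 were higher and 8 lower, and with quantile or cyclic loess normalization 4 were higher and 8 lower. With an array left out fewer were higher. Fewer were also lower in these fits, apart from that without wild type siRNA replicate 2. Utp15, a nucleolar protein of pre-rRNA processing, had signals of 481 and 525 with the wild type siRNA and 1629 and 1827 with the mutant siRNA, a log2 fold change of -1.70 (SE 0.20, adjusted p = 0.0021). Tcof1, treacle, which promotes transcription of ribosomal RNA, had 285 and 407 against 913 and 989, at -1.40 (SE 0.25, adjusted p = 0.00726). Sdad1, a nucleolar protein of large-subunit assembly, had 988 and 926 against 381 and 443, at 1.30 (SE 0.21, adjusted p = 0.00517). All 3 calls held with each array left out. Rrp1b, a nucleolar protein, was at -1.22, a call that held only with wild type siRNA replicate 2 left out among those fits.

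Of 29 genes of the growth pathways that act on ribosome synthesis, 7 (24.1%) were higher and 4 (13.8%) lower, with a median of 0.29. The higher count fell with each array left out. The lower count fell as well, apart from the fit without wild type siRNA replicate 2, where it was unchanged. Rps6ka5, a kinase of histones and transcription factors, had signals of 86.1 and 177 with the wild type siRNA and 750 and 775 with the mutant siRNA, a log2 fold change of -2.55 (SE 0.36, adjusted p = 0.0034), and kept its call with each array left out. Rps6ka3, a kinase downstream of ERK, had 543 and 818 against 171 and 316, at 1.60 (SE 0.35, adjusted p = 0.0134), and did not pass when mutant siRNA replicate 1 was left out (adjusted p = 0.0711). Mxd1, which competes with Myc for Max, was at 2.23 and Ddit4, an inhibitor of mTOR signalling, at -1.37 (adjusted p = 0.0219 and 0.031). Both calls were lost without mutant siRNA replicate 1 and without wild type siRNA replicate 1. Mtor itself was at 0.54, Myc at 0.51 and Rps6kb1, an S6 kinase, at 0.29, and Larp1 was at 0.06, none of them called (adjusted p between 0.0817 and 0.839). These 4 were named after their values were seen. Of the like genes tested, Rps27l, Rpl7l1 and Rpl26l1, none was called, with log2 fold changes of -0.03, -0.06 and 0.52.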

How the data were processed

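RNA of RT4D6 cells was measured on 4 Affymetrix Rat 230 2.0 arrays, 2 per group. The values that the authors deposited are intensity values from MAS5 (version not given in the sources used here), 1 per probe set. The 2% trimmed mean of every array is 500, so arrays had been scaled to each other. The paper then filtered on detection calls and normalized to the median in GeneSpring, and neither step is in the deposited values. Detection calls were not used here, and medians were subtracted as described next.

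Control probe sets (57 of 31099) were left out. Of the others, 20826 have a single symbol in the platform annotation, 436 several and 9780 none listed there. From each log2 signal the median of its array was subtracted. A total of 16125 probe sets reached 0 on this scale on 2 or more arrays and entered limma 3.58.1 (lmFit, then eBayes with a trend on brightness, R 4.3.3), with Benjamini-Hochberg adjustment over all of them and calls at an adjusted p under 0.05. The code of the fit was run on simulated data in which noise was independent between probe sets. That run checks the code and not the fit to these arrays. Shares of all genes use 1 probe set per gene. Tables and plots were made in Python 3.11.15 with pandas 2.3.3 and matplotlib 3.10.9.

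The submitters' design and the paper describe paired cell samples, and the replicate number was taken as the pair in a fit with a replicate block. Over probe sets, the deviations from the group mean of arrays sharing a number had a correlation of 0.141. Members and gene lists were chosen with earlier results of these data known. Named were Sox10, the 4 lowest and 4 highest ribosomal protein genes, the stalk protein Rplp0, Rpsa, Rps6, Rpl5 and Rpl11. Up to 4 called genes of each list with the largest change were named too, and other named genes are examples or second probe sets. Starts of genes are from RefSeq (GRCr8), the first listed where a gene has several.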

Additional observations from a re-analysis of the deposited data

How the results depend on the processing

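The counts of 0 ribosomal protein genes lower and 0 higher did not change under any alternative tried: other scalings, treatments of low signals, filters and variance models, the methods' t-test with and without adjustment, the replicate block, the mean of a gene's probe sets, every probe set counted, and each array left out. With the replicate block the median log2 fold change was 0.04 and no call among the 40 genes changed. The median did depend on scaling, at -0.040 with the signals as deposited, -0.0036 with quantile normalization and -0.14 with cyclic loess normalization, where that of all genes was 0.12, 0.14 and 0.12. With an array left out it lay between -0.066 and 0.17. It was below that of all genes under every alternative compared. The other genes of like brightness had a median of 0.04 in the main fit, and their medians under the alternatives were not computed. Single genes changed sign. With cyclic loess normalization Rpl23a was at -0.025, Rps28 at -0.010, Rplp0 at -0.075, Rps6 at -0.14, Rpl5 at -0.12 and Rpl11 at -0.15. With the signals as deposited Rps6 was at -0.037, Rpl5 at -0.013 and Rpl11 at -0.042, and with quantile normalization Rps6 was at -0.0040 and Rpl11 at -0.0068. Rpl7 was at 0.073 as the mean of its probe sets. With an array left out, values ranged from -0.21 to 0.0025 for Rpl13a, -0.20 to 0.049 for Rpsa, -0.22 to 0.087 for Rpl7, -0.0061 to 0.32 for Rpl23a, -0.016 to 1.47 for Rps13, -0.015 to 0.23 for Rplp0, -0.097 to 0.18 for Rps6, -0.030 to 0.16 for Rpl5 and -0.056 to 0.13 for Rpl11. The alternatives were also compared for Sox10 and for the called genes of the other lists that were named for the largest changes. The remaining called genes of these lists, with smaller changes, are not in this comparison. Of the values compared, 223 kept their direction and call and 60 kept only their direction. Among the 60 were the values of every compared gene in the methods' t-test after adjustment. Sox10 itself was not called there (adjusted p = 0.184 from the t-test), so the lack of ribosomal protein calls in that setting tells little. The cause of these changes was not tested. The number of arrays limits the precision.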
